A study of Mus musculus with 4 samples.

Results

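A set of 6 genes of catecholamine synthesis and transport was followed in single cells of the mouse arcuate nucleus (ARC) on embryonic day 15: Th, Ddc, Slc18a2, Slc6a3, Gch1 and Nr4a2. They were taken by name, and all 6 were found among the 27998 gene rows of the count matrix. Cells came from C57BL/6 embryos carrying the Pomc-eGfp reporter, in which green fluorescence under Pomc control guided the dissection, and the tissue was dispersed with papain. Embryos were pooled into 1 droplet library that was sequenced in 4 runs, and the run titles give the stage as 15.5 in place of 15. There is no control group and no map from cells to embryos or runs, so the study holds 1 sample, and all differences below are between cells of that sample without a replicate check.

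Catecholamine synthesis starts with tyrosine hydroxylase, the product of Th, which turns tyrosine into L-DOPA with the help of a tetrahydrobiopterin cofactor. Aromatic amino acid decarboxylase (Ddc) makes dopamine from L-DOPA, and also serotonin from its precursor. The vesicular monoamine transporter VMAT2 (Slc18a2) loads the amine into vesicles, the dopamine transporter (Slc6a3) takes it back up, GTP cyclohydrolase (Gch1) is the entry enzyme of cofactor synthesis, and the nuclear receptor Nurr1 (Nr4a2) is needed for the dopamine neurons of the midbrain. In the adult ARC, dopamine neurons restrain prolactin release, Th is also known in neurons that make growth hormone-releasing hormone (Ghrh), and the hypothalamus is known to hold neurons with only some of the enzymes of the pathway.

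The members lie apart in the mouse genome (GRCm38, GENCODE vM21). Th is at chr7:142892752-142931128 on the minus strand, Ddc at chr11:11814101-11898144 on the minus strand, Slc18a2 at chr19:59260896-59296012 on the plus strand, Slc6a3 at chr13:73536747-73578672 on the plus strand, Gch1 at chr14:47153895-47189413 on the minus strand and Nr4a2 at chr2:57106830-57124003 on the minus strand. Of the annotated genes that overlap them and are rows of the matrix, the antisense gene 1700042O10Rik, which overlaps Ddc, had UMIs in 2 cells, neither of them with a Ddc UMI, and Gm29261, which overlaps Slc18a2, had 0 UMIs.

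Promoters are shown for Th, Ddc and Slc18a2, the 3 members with a match to a motif counted below. Each is 250 bases before and 10 bases after the RefSeq start (GRCm38.p6), read 5′ to 3′ along the gene. Capitals mark the cyclic AMP response element TGACGTCA in Th and Slc18a2, and, in the outer of the 2 Ddc promoters, TGACCTTT, which is the reverse complement of AAAGGTCA, the element that NR4A receptors are known to bind. The stretches are chr7:142899986-142900245 (minus strand), chr11:11898135-11898394 (minus strand) and chr19:59260628-59260887 (plus strand), and that of Th lies inside the annotated span of the gene.
Th: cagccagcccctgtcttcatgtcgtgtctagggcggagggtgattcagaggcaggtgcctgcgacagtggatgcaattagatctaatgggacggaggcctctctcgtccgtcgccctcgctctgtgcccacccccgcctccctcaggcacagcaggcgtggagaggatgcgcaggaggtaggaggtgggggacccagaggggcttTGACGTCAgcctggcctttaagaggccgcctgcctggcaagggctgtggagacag
Ddc: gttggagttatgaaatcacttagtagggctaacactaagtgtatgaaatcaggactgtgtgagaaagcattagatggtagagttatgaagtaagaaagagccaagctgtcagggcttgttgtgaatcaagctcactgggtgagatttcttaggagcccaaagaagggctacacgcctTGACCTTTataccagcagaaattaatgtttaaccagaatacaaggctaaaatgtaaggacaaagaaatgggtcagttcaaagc
Slc18a2: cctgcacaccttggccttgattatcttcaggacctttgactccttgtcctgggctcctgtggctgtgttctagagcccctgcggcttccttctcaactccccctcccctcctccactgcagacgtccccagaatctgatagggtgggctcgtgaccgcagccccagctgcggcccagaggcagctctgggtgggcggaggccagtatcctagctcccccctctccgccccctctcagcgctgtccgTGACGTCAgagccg
In Th the element starts 45 bases before the start site, and in Slc18a2 it starts 4 bases before it and runs 4 bases past it. TGACGTCA was in 2 of the 7 member promoters and in 1.67% of the 32851 mouse promoter stretches of the same length, AAAGGTCA on either strand in 1 of 7 and in 1.39%, and the homeodomain core TAATTA in 0 of 7 and in 4.94%. The motifs do not overlap each other in these stretches, and a match is a match of letters only.

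The matrix held 6465 barcodes and 26277265 unique molecular identifiers (UMIs), each of which stands for 1 captured RNA molecule. The limits on detected genes, mitochondrial UMIs and hemoglobin given in the study's methods left 6351 cells with 1748 to 16836 UMIs and a median of 3338. Neurons were taken as the 4006 cells (63.1%) with at least 2 UMIs of Stmn2, a gene of growing neurites, and had a median of 3408.5 UMIs; the other 2345 cells had 3182. Shares are percent of cells with at least 1 UMI with exact Clopper-Pearson 95% intervals, levels are the pooled UMIs of a gene per 1000000 UMIs of the group (CPM) with exact Poisson intervals, ratios of levels have exact conditional binomial intervals, and all intervals cover counting error only. The 7 neuronal markers summed to 6346 CPM in neurons and 814 CPM in the other cells. Stmn2, which chose the neurons, is 1 of the 7, so part of this difference was set by the choice. The ARC markers Nkx2-1 and Tbx3 summed to 215 CPM in neurons, and their levels are given beside the neuron groups below in which they were low.

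Of the 6 members, 5 were detected. Slc6a3 had 0 UMIs in all 6465 barcodes, and 0 of 6351 cells still permits a share of 0.0472%. Among neurons, Th was found in 163 cells (4.07%, 3.48 to 4.73), Ddc in 143 (3.57%, 3.02 to 4.19), Slc18a2 in 58 (1.45%, 1.1 to 1.87), Gch1 in 56 (1.4%, 1.06 to 1.81) and Nr4a2 in 718 (17.9%, 16.7 to 19.1). Most positive neurons held a single UMI: 66.9% of those with Th, 87.4% with Ddc, 87.9% with Slc18a2 and 92.9% with Gch1, against 38.3% with Nr4a2. The highest number in a neuron was 7 for Th, 3 for Ddc, 2 for Slc18a2, 2 for Gch1 and 17 for Nr4a2, so a neuron without a UMI may still hold the RNA. After each cell was thinned to 2167 UMIs, which left out 280 of the neurons, the shares were 2.84% for Th, 2.17% for Ddc, 1.13% for Slc18a2, 0.751% for Gch1 and 14.0% for Nr4a2.

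As background, the 234 cells with genes of vessels, fibroblasts or macrophages (median 3636.5 UMIs) were used, since they should lack catecholamine synthesis. Th was found in 2 of them (0.855%), Ddc in 1 (0.427%), Slc18a2 in 0 (which permits up to 1.28%) and Gch1 in 4 (1.71%). The neuronal shares of Th and Ddc lay above this background beyond counting error, while the interval of Slc18a2 over all neurons included the share that its 0 permits. The share of Gch1 in neurons lay below that in the background cells, so no expression above background is read from it over all neurons. Nr4a2 was in 33 of the background cells (14.1%, 9.91 to 19.2) but in only 2.43% of the neurons with Dlx genes, so its level in the vessel group was not a level common to all cells. The immediate-early genes, which are rapidly induced by stimulation or handling of cells and among which Nr4a2 is counted, were high there as well: Fos had 1682 CPM in the vessel group and 342 CPM in neurons, and Nr4a1 237 and 40.8 CPM. Their part in the Nr4a2 level was not tested.

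Compared with the other cells, neurons had higher levels of 4 members. Slc18a2 had 65 UMIs in neurons (4.21 CPM) and 6 in the other cells (0.668 CPM), a ratio of 6.30 (2.74 to 17.8), and 5 of those 6 cells had 1 Stmn2 UMI. Its ratio was 24.8 (4.30 to 992) when neurons needed at least 1 Stmn2 UMI and 3.87 (2.01 to 8.155) with at least 3. Th was at 16.5 and 5.01 CPM (ratio 3.29, 2.39 to 4.63), Nr4a2 at 146 and 54.3 CPM (2.69, 2.43 to 2.97) and Ddc at 10.7 and 4.79 CPM (2.23, 1.59 to 3.20). The Th ratio was 2.16 when neurons needed at least 3 Stmn2 UMIs and 2.08 after thinning, and 20 of the 37 Th-positive other cells were in none of the gene groups below. Gch1 was the exception at 3.88 and 6.13 CPM (0.634, 0.432 to 0.931), and its direction turned to a ratio of 1.15 (0.696 to 1.94) when mitochondrial UMIs were limited to 5%. With a 2-fold limit and at least 5 expected UMIs in the smaller group, 4 of the 5 members that could be judged were higher in neurons, against 11.5% of the 14661 genes judged, and 0 of 5 were lower, against 24.1%.

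To see where each member lies, neurons were grouped by genes that mark neuronal types, and the other cells by progenitor, precursor, pituitary-gene and vessel genes. A cell joined a group when it had at least 2 UMIs of that group's genes and more than of any other group's, and 1904 neurons joined none. The 329 neurons with Dlx genes, homeobox factors of inhibitory forebrain neurons, had the highest Th level, 91.3 CPM in 51 cells (15.5%). The 523 neurons with Otp followed with 22.7 CPM in 34 cells (6.50%), and the Dlx group exceeded them by a ratio of 4.03 (2.75 to 6.00). These levels count neurons with and without Ghrh. Only 25 of the 51 Th-positive neurons with Dlx genes had no Ghrh UMI, against all 34 with Otp. Among neurons without Ghrh, 25 had Th and 270 did not in the Dlx group, against 34 and 486 in the Otp group. A ratio of levels without the Ghrh neurons was not computed. From Otp downwards, the intervals of neighbouring groups overlapped, from 14.3 CPM in the 44 neurons with Lhx1 down to 0 UMIs in the 226 neurons with Gbx2 or Kitl, which permits up to 3.03 CPM. Th was 29.3 times (9.73 to 145) the background level in the Dlx group and 7.28 times (2.31 to 36.8) in the Otp group. In the Robo3 or Pou4f1 group it was at 4.01 CPM against 3.12 CPM in the background cells, a ratio of 1.29 (0.347 to 7.10), so no Th expression above background is read there. A further 62 Th-positive neurons joined no group and held 34.3% of its 300 UMIs.

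Ddc and Slc18a2 had their highest levels in the same groups. Both were highest in the Lhx1 group, with Ddc at 57.2 CPM in 8 of 44 cells and Slc18a2 at 42.9 CPM in 5, and next in the Dlx group, with Ddc at 37.1 CPM in 31 of 329 and Slc18a2 at 28.5 CPM in 25. The ARC markers were at 42.9 CPM in the Lhx1 group and at 237 CPM in the Dlx group. The Lhx1 and Dlx groups did not differ beyond counting error for Ddc (1.54, 0.623 to 3.35) or Slc18a2 (1.5, 0.512 to 3.67). Th was lower in the Lhx1 group (0.157, 0.0187 to 0.581), with the Ghrh neurons of the Dlx group included. In the Otp group, where Th was second highest, Ddc had 5 UMIs (2.91 CPM) and Slc18a2 had 1 (0.582 CPM). The Dlx group exceeded the Otp group 12.8 times (5.02 to 41.5) in Ddc and 49.1 times in Slc18a2, the latter with an interval from 8.16 to 2002 because it rests on 1 UMI. Together the Dlx and Lhx1 groups held 36 of the 71 Slc18a2 UMIs. Ddc was also found at 10.0 CPM in the 704 neurons with Robo3 or Pou4f1 and at 8.76 CPM in the 589 other cells with pituitary genes, where Slc18a2 was at 0.668 CPM and at 0 UMIs. Against the background cells, whose Ddc rests on 1 UMI, these levels had ratios of 9.64 (1.60 to 393) and 8.44 (1.38 to 346).

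Gch1 was highest in the cells with pituitary genes, such as Pitx1 and Pou1f1, at 13.0 CPM in 32 of 589 cells (5.43%, 3.75 to 7.58). This was 3.34 times (2.16 to 5.12) the level over all neurons and 3.12 times (1.12 to 12.1) that of the background cells. After thinning the share was 3.28% against 0.948% in the background cells and 0.751% in neurons. In no neuronal group did Gch1 stand apart from its neighbours in the order, from 6.40 CPM with Otp to 0 UMIs with Lhx1. The Dlx group, which had the most Th, had 2 Gch1 UMIs in 1 cell.

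Nr4a2 lay elsewhere. In the Robo3 or Pou4f1 group it reached 524 CPM (499 to 551) in 449 of 704 cells (63.8%), and in the Gbx2 or Kitl group 280 CPM in 77 of 226 (34.1%), which left a ratio of 1.87 (1.64 to 2.13) between them. The ARC markers were at 17.0 and 26.2 CPM in these groups. These groups held 57.2% and 10.1% of its 2743 UMIs. The 21 neurons with Neurod2 or Neurod6 had 90.8 CPM and the cells with pituitary genes 75.0 CPM, and from there downwards neighbouring groups overlapped. The lowest level, 8.56 CPM in 8 of 329 cells, was in the Dlx group, where Th was highest. Fos was at 302 CPM in the Robo3 or Pou4f1 group and at 398 CPM in the Dlx group.

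**Figure D1:**
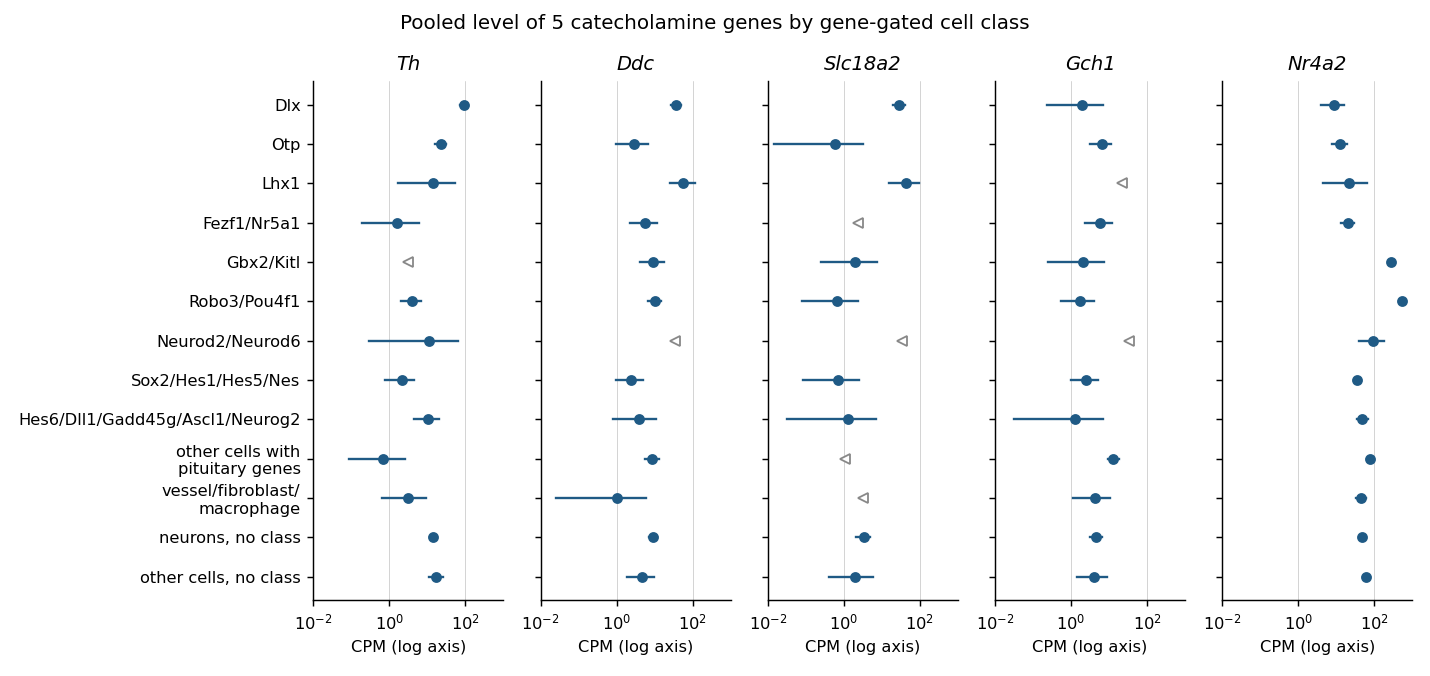
Pooled level of each detected member in CPM (log axis) in cell groups set by the genes or gene types named on the left, with exact Poisson 95% intervals of counting error. An open triangle marks a group with 0 UMIs and is drawn at the level of 3 UMIs. Th peaks in the Dlx group (91.3 CPM, with its Ghrh neurons included). Ddc and Slc18a2 peak in the Lhx1 and Dlx groups, Gch1 in the pituitary-gene cells (13.0 CPM) and Nr4a2 in the Robo3/Pou4f1 group (524 CPM).

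Neurons were next divided by their UMIs of Th and Ghrh into 45 with both, 118 with Th alone, 48 with Ghrh alone and 3795 with neither, with median depths of 3330, 2956, 3841.5 and 3423 UMIs. Th and Ghrh chose these cells, so their own levels are only described. Th had 625 CPM in neurons with both and 385 CPM in those with Th alone. The share of Ghrh-positive neurons with a Th UMI was 6 of 44 where Ghrh had a single UMI, 8 of 10 at 2 to 4 and 31 of 39 at 5 or more. In the last of these, 2 of 39 had a Ddc UMI and 0 had an Slc18a2 UMI.

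Among neurons without Ghrh, Slc18a2 was the member that was higher with at least 1 Th UMI. It had 9 UMIs in 8 of the 118 Th-positive neurons (6.78%, 2.97 to 12.9) and 56 UMIs in 50 of the 3795 Th-negative ones (1.32%, 0.979 to 1.73), or 21.7 and 3.81 CPM with a ratio of 5.68 (2.47 to 11.6). The thinned shares were 5.45% and 1.02%. Inside the Dlx group Slc18a2 was in 2 of 25 Th-positive and 23 of 270 Th-negative neurons (ratio 1.18, 0.229 to 3.83), so no difference was detectable there. Among neurons in no group it was in 5 of 43 and 18 of 1819 (ratio 13.0, 3.79 to 36.0). The Slc18a2-positive neurons held mostly low Th counts, 7 of 88 neurons with a single Th UMI and 1 of 30 with more, and with at least 2 Th UMIs required the ratio was 2.66 (0.0662 to 15.4).

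Ddc, the enzyme that follows Th in the pathway, was in 5 of the 118 Th-positive neurons (4.24%, 1.39 to 9.61) and in 134 of the 3795 Th-negative ones (3.53%, 2.97 to 4.17). The ratio of 1.61 had an interval from 0.635 to 3.39, so a difference in either direction was not detectable at this depth, and one above 3.39-fold lay outside it. Inside the Dlx group the ratio was 1.61 as well (0.490 to 4.14). Gch1 had 2 UMIs in Th-positive neurons, a ratio of 1.24 (0.147 to 4.69).

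Nr4a2 was lower with Th, at 21 UMIs in 9 of 118 neurons (7.63%) and 2211 UMIs in 699 of 3795 (18.4%), or 50.6 and 151 CPM with a ratio of 0.336 (0.207 to 0.514). Of the 21 UMIs, 15 were in the Robo3 or Pou4f1 group, where the Th level was not above background beyond counting error, so having a Th UMI there may not mark expression. Within it, 6 of 11 neurons with a Th UMI and 438 of 685 without had it (ratio 0.521, 0.291 to 0.861), and outside every group 3 of 43 and 138 of 1819 did (0.898, 0.327 to 1.98). With at least 2 UMIs required for Th, the ratio was 0.0674 (0.00171 to 0.376), which rests on 1 Nr4a2 UMI in 30 neurons. At the limit of 1 UMI, the ratio outside the Robo3 or Pou4f1 and Gbx2 or Kitl groups was 0.455 (0.166 to 1.0). Nr4a2 was the only member with enough expected UMIs to be judged across genes: it was among the 4.87% of 7652 genes lower 2-fold or more with Th, while 0.993% were higher.

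**Figure D2:**
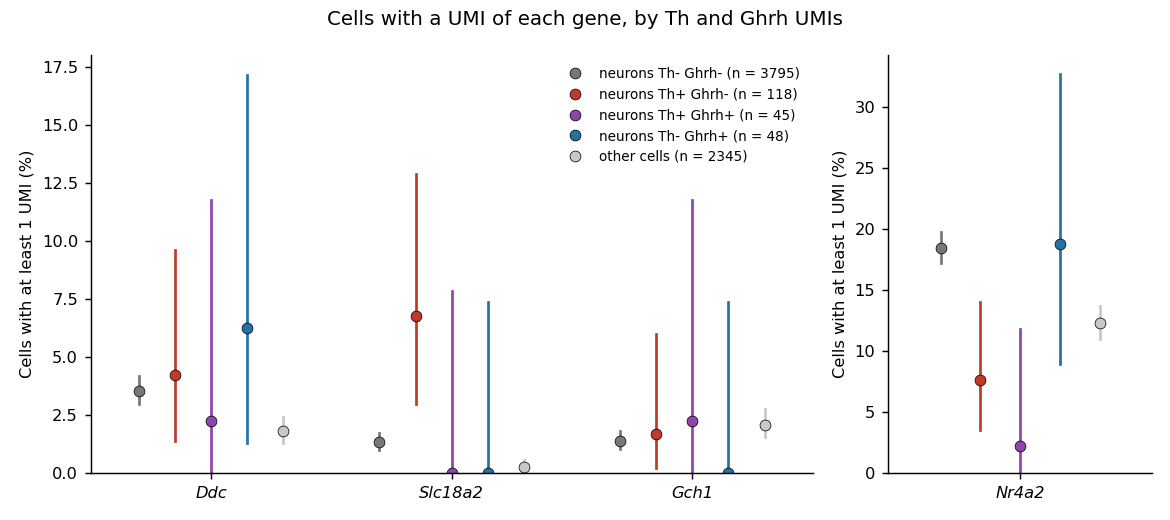
Percent of cells with at least 1 UMI of Ddc, Slc18a2, Gch1 and Nr4a2 in neurons divided by Th and Ghrh UMIs and in the other cells, with Clopper-Pearson 95% intervals of counting error. Slc18a2 stands highest in the 118 neurons with Th and no Ghrh (6.78%) and is at 0 in both groups with Ghrh, and Nr4a2 is lowest in the 45 neurons with both (2.22%).

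Among Th-positive neurons, those with Ghrh had few UMIs of any other member. Slc18a2 had 0 UMIs in 45 neurons with Ghrh, which permits a share of 6.67%, and 9 UMIs in 118 without. The ratio had an upper bound of 1.38, so equal levels were within counting error. Ddc had 1 and 7 UMIs (ratio 0.390, 0.00866 to 3.04) and Gch1 1 and 2. Nr4a2 had 1 UMI with Ghrh (6.58 CPM) and 21 without (50.6 CPM), a ratio of 0.130 (0.00315 to 0.809), and with at least 2 UMIs required for Th and Ghrh the direction turned to 1.4 (0.0179 to 110.0). Of the 21 UMIs without Ghrh, 15 were in the 11 neurons of the Robo3 or Pou4f1 group and 6 in neurons of no group, and Pou4f1 itself had 0 UMIs with Ghrh and 54 without. The part of these neurons in the Nr4a2 ratio was not tested. Of the 4424 genes judged, 5.74% were higher 2-fold or more with Ghrh and 8.68% lower. Nr4a2 was among the lower, and of the members that did not choose these cells it was the only one with enough expected UMIs to be judged.

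The 48 neurons with Ghrh and no Th were compared with the 3795 that had neither. Most of them were at the limit of detection: 44 of all neurons with Ghrh held 1 UMI of it, of which 6 had Th, and Ghrh was also found in 2 of the 234 background cells (0.855%, 0.104 to 3.05). Ddc was in 3 of them (6.25%, 1.31 to 17.2) with a ratio of 1.4 (0.285 to 4.16), and Slc18a2 and Gch1 were in 0, which permits up to 6.25%. Nr4a2 was in 9 (18.8%) with a ratio of 0.713 (0.446 to 1.08). The intervals of Ddc and Nr4a2 included 1. Over all neurons with Ghrh, those with Th included, 21 Nr4a2 UMIs lay in neurons with 1 Ghrh UMI and 2 in those with more. With at least 2 UMIs required for Ghrh, 10 neurons without Th remained. The ratio of Nr4a2 was then 0.168 (0.00426 to 0.939), which rests on these few cells.

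Co-detection showed which members share cells. Of the 4006 neurons, 2953 had a UMI of no member, 971 of 1 member, 79 of 2 and 3 of 3. Only 1 neuron held Th, Ddc and Slc18a2 together; 7 held Th and Slc18a2 without Ddc, 7 Ddc and Slc18a2 without Th, and 5 Th and Ddc without Slc18a2, against 150 with Th alone of the 3. Ddc and Slc18a2 met in 8 neurons where 2.07 were expected from their separate shares (ratio 3.86, 1.67 to 7.61), and Th and Slc18a2 in 8 where 2.36 were expected (3.39, 1.46 to 6.68). Within the Dlx group, Ddc and Slc18a2 were at 1.70 times (0.463 to 4.35) and Th and Slc18a2 at 0.516 times (0.0625 to 1.86) the expected number, and both intervals include 1. Th and Ddc met in 6 neurons where 5.82 were expected (1.03, 0.378 to 2.24), so the 2 enzymes that act in sequence coincided no more than their separate shares gave, within that interval. With the expected numbers summed over 10 bins of depth, the ratios were 3.87, 3.02 and 1.1.

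Th and Nr4a2 met in 10 neurons where 29.2 were expected (0.342, 0.164 to 0.629), and Ddc and Nr4a2 in 35 where 25.6 were expected (1.37, 0.951 to 1.90). Outside the Robo3 or Pou4f1 and Gbx2 or Kitl groups, the ratio of Th with Nr4a2 was 0.422 (0.115 to 1.08), an interval that includes 1, and that of Ddc with Nr4a2 was 0.874 (0.321 to 1.90). With at least 2 UMIs of each, Ddc with Nr4a2 was at 3.01 (1.11 to 6.56). Pairs with Gch1 lay near their expected numbers, such as 3 neurons with Th where 2.28 were expected. The pair of Th and Ghrh stood above all member pairs, with 45 neurons where 3.78 were expected (11.9, 8.67 to 15.9), and 4.93 times within the Dlx group.

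**Figure D3:**
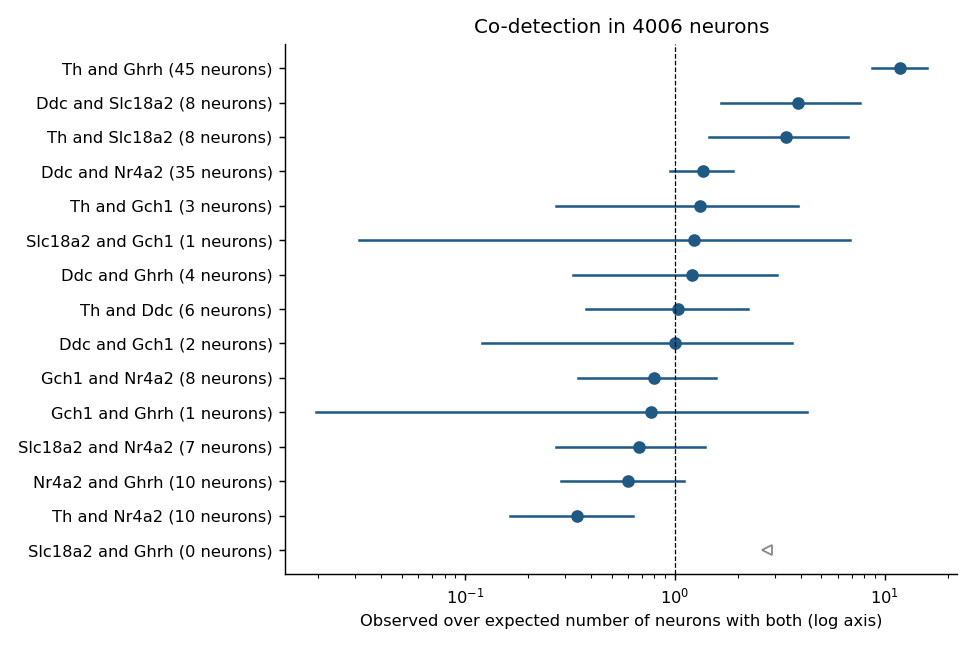
Observed over expected number of neurons with a UMI of both genes (log axis), for the pairs of detected members and each member with Ghrh, with Poisson 95% intervals of counting error. The dashed line marks the number that separate shares give, and an open triangle is the upper bound of a pair with 0 neurons. Th with Ghrh (11.9), Ddc with Slc18a2 (3.86) and Th with Slc18a2 (3.39) lie above the line, Th with Ddc (1.03) on it and Th with Nr4a2 (0.342) below.

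Listed genes were then counted with each member. Th was found with Gsx1, a homeobox factor of Ghrh neurons, in 25 neurons where 3.66 were expected (6.83, 4.42 to 10.1), with the peptide galanin (Gal) in 20 (5.52, 3.37 to 8.53), with Dlx1 in 56 (4.29, 3.24 to 5.57) and with Hmx2 in 30 (3.53, 2.38 to 5.04). In neurons without Ghrh, the level of Gal with against without Th had a ratio of 1.52 (0.406 to 4.02), an interval that includes 1. That of Gsx1 was 5.55 (2.65 to 10.6). Of the other Ghrh-lineage genes, Prox1 met Th in 54 neurons (2.4, 1.81 to 3.14) and Hmx3 in 7 (3.91, 1.57 to 8.06), but Foxp2 met it in 31 where 34.2 were expected (0.906, 0.616 to 1.29), and without Ghrh the level of Foxp2 was 62.6 CPM with Th and 108 CPM without (0.579, 0.377 to 0.851). Among Th-positive neurons, Foxp2 was at 125 CPM with Ghrh and 62.6 CPM without (2.0, 1.04 to 3.75). Over bins of depth, Th with Foxp2 was at 1.05 times the expected number. The neurons with neither Th nor Ghrh include 685 of the Robo3 or Pou4f1 group, against 11 with Th alone. Foxp2 met Nr4a2, which was highest in that group, in 274 neurons (1.82, 1.61 to 2.05). The part of that group in the Foxp2 level was not tested. Dlx6 met Th in 5 neurons where 5.09 were expected (0.983, 0.319 to 2.29). Th met Slc32a1, the vesicular GABA transporter, in 33 neurons (2.77, 1.91 to 3.89) and Slc17a6, the vesicular glutamate transporter, in 9 where 29.1 were expected (0.310, 0.142 to 0.588).

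Slc18a2 met Lhx1, a homeobox factor, in 26 of its 58 neurons where 2.95 were expected (8.80, 5.75 to 12.9) and Dlx1 in 29 (6.24, 4.18 to 8.96). Ddc met the same genes in 32 (4.39, 3.01 to 6.20) and 39 neurons (3.40, 2.42 to 4.65). With Gsx1, Slc18a2 was in 0 neurons where 1.3 were expected and Ddc in 5 where 3.21 were. Gch1 met Pomc in 33 of its 56 neurons where 13.0 were expected (2.53, 1.74 to 3.55), or 1.88 times over bins of depth. Pomc was also found in 13.2% (9.18 to 18.3) of the background cells and 29.7% of the pituitary-gene cells, and Gch1 over all neurons was not above background, so this is given as a count of shared UMIs and not as expression in the same cells. Nr4a2 met Pou4f1, a factor of habenular and sensory neurons, in 545 of its 718 neurons where 166 were expected (3.28, 3.01 to 3.56), and Etv1 in 258 (3.59, 3.17 to 4.06), but Dlx1 in 14 where 57.5 were expected (0.243, 0.133 to 0.408).

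**Figure D4:**
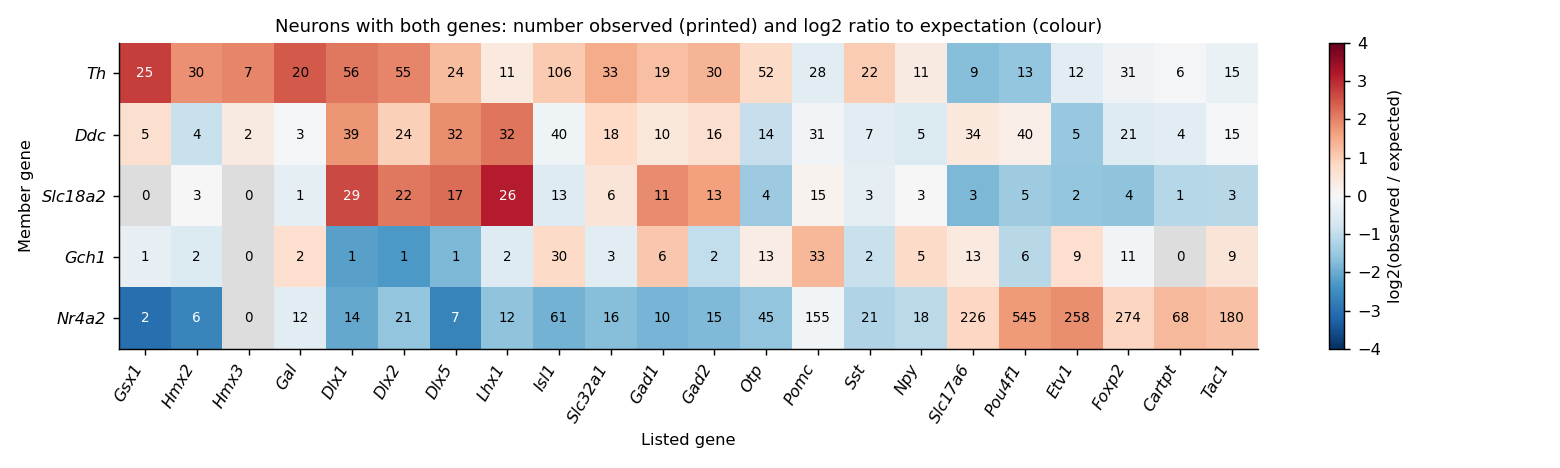
Number of neurons with a UMI of both the member (rows) and the listed gene (columns), printed in each cell, and the log2 ratio of that number to the number expected from the separate shares, as colour. Grey cells hold 0 neurons. Among the genes plotted, red cells include Gsx1, Gal, Dlx1 and Dlx2 for Th, Dlx1, Dlx5 and Lhx1 for Ddc, Dlx1, Dlx2, Dlx5 and Lhx1 for Slc18a2, and Pou4f1 and Etv1 for Nr4a2.

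Over the 4006 neurons and 10793 genes with a UMI in at least 50 of them, the genes whose log-normalized levels were most like those of each member were ranked by Pearson's r as a description. All points share 1 library, and depth was scaled but not removed. Th was most like Ghrh (r = 0.457), Mbnl3 (0.290) and Prox1os (0.242). Among the genes most like Slc18a2 were Lhx1os (0.248) and Dlx1 (0.218), and Ddc was most like Lhx1os (0.189), Lhx1 (0.176) and Dlx1 (0.159). Nr4a2 was most like Pou4f1 (0.578), Cbln2 (0.545) and Nwd2 (0.532). No gene reached 0.15 with Gch1.

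Other genes of amine metabolism were counted from lists by function. Dbh, which turns dopamine into noradrenaline, had 0 UMIs in all 6351 cells, as did the dopamine receptor genes Drd2, Drd3 and Drd5, and Pnmt, the enzyme that makes adrenaline, had 8. The transporters Slc18a1, Slc6a2 and Slc6a4 together had 33 UMIs, and the serotonin and histamine enzymes Tph1, Tph2 and Hdc 57. Among midbrain dopamine factors, Foxa2 and Pitx3 had 0 UMIs in all cells, and the list of 7 had 27 UMIs in neurons, too few to compare Th-positive with Th-negative ones.

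All 6 genes of the tetrahydrobiopterin list had UMIs in neurons. Of the 5 that could be judged between Th-positive and Th-negative neurons without Ghrh, 0 were higher and 0 lower 2-fold or more (0.993% and 4.87% of all genes judged), with a median log2 ratio of -0.17 beside -0.02 over all genes judged. In Th-positive neurons with Ghrh, Pcbd1, which regenerates the cofactor, was at 125 CPM against 55.4 CPM without (2.26, 1.16 to 4.33), as 1 of 2 judged, where 5.74% of all genes judged were higher and 8.68% lower. Of the breakdown enzymes, Maoa was at 28.9 and 17.4 CPM with and without Th (1.66, 0.845 to 2.94).

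Among 11 forebrain and Dlx factors, 8 were judged between Th-positive and Th-negative neurons without Ghrh: 5 were higher (Dlx1, Dlx2, Dlx5, Isl1 and Otp) and 2 lower (Etv1 and Pax6), with a median log2 ratio of 1.17, where 0.993% of all genes judged were higher and 4.87% lower. Dlx1 was at 113 and 27.7 CPM (4.08, 2.95 to 5.53) and Otp at 388 and 166 CPM (2.33, 1.97 to 2.74). Of the transmitter genes, Gad1, Gad2 and Slc32a1 were higher and Slc17a6 was lower with Th (0.402, 0.192 to 0.742). Of the 6 peptide genes judged, Sst alone passed 2-fold, at 366 and 115 CPM (3.17, 2.67 to 3.75). Of the Ghrh-lineage genes, 1 of 3 judged (Hmx2) was higher, and of the 4 immediate-early and 8 neuronal maturation genes judged, 0 were higher and 0 lower. The leading genes by ratio were Dlx6os1 (4.83), Ecel1 (4.25), Hmx2 (4.23), Prox1os (4.20), Dlx1, Dlx2, Slc32a1 (3.44) and Asb4 (3.40).

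Within Th-positive neurons, Ghrh set apart a group with other genes. Gal was at 197 CPM with Ghrh and 9.63 CPM without (20.5, 7.22 to 80.1), the homeobox factor Prox1 at 474 and 69.8 CPM (6.78, 4.35 to 10.8) and Gsx1 at 138 and 26.5 CPM (5.22, 2.4 to 12), with Mbnl3, Rftn1, Camkv, Rogdi and Pik3r1 from 6.07 to 5.22 between them. Otp was at 26.3 and 388 CPM (0.0679, 0.0183 to 0.177), and Lhx1, which was found with Slc18a2, had 0 UMIs with Ghrh and 19 without. The immediate-early genes Fos (816 and 311 CPM), Egr1 (375 and 104 CPM) and Junb were higher with Ghrh, 3 of the 4 judged, where 5.74% of all genes judged were higher and 8.68% lower. The ARC marker Nkx2-1 was at 26.3 and 135 CPM with Tbx3 at 0 UMIs with Ghrh, and the 7 neuronal markers summed to 4006 and 5973 CPM. Their part in the differences of the members between these neurons was not tested. Among the 6 forebrain and Dlx factors judged, Dlx1 and Dlx2 were higher and Lhx1 and Otp lower with Ghrh. Among the 5 peptides judged, Gal was higher, while Npy (0.188, 0.0218 to 0.745), Pomc (0.0948, 0.0343 to 0.210) and Sst (0.0719, 0.0193 to 0.188) were lower. The shares of cells with and without Ghrh differed less for these 3. They were 4.44% and 7.63% for Npy, 11.1% and 19.5% for Pomc, and 4.44% and 16.9% for Sst. Of the 8 neuronal maturation genes, Syt1, the vesicle calcium sensor, was lower (0.450).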

How the data were processed

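Droplet single-cell RNA was measured in 1 pooled library of dissociated embryonic arcuate tissue, labelled as 4 sequencing runs. The authors aligned the reads and collapsed them by molecular identifier into 1 deposited table of whole-number counts (UMIs) per gene and cell. The submitters' processing notes name Cell Ranger 2.1.1, STAR 2.4.0, Seurat 2.0 and mm10. The strand setting is not given in the sources used here.

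Cells with 200 to 4500 genes, at most 10% mitochondrial UMIs and at most 10 Hba-a1 UMIs were kept, the limits that the study's methods state, which left out 114 of 6465 barcodes. This kept more cells than the study states after its filtering, and the difference was not resolved. No barcode occurred more than 1 time. No doublet caller was run, and cells with many UMIs were instead left out as an alternative. Because the table holds 1 sample, no test was made, and intervals are at the 95% level: Clopper-Pearson for shares, Poisson for levels and co-detection, and conditional binomial for ratios. The limit that a 0 permits is 3 counts. Genes were judged between groups at 5 expected UMIs in the smaller group and called at 2-fold. Thinning used 1 seeded draw. The count comparison was run on simulated Poisson counts with changes larger than 2-fold. Spread between cells was not simulated, so that run does not check the calls made here.

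The members and all gene lists and groups were chosen with earlier results of these data known. Genes named are the members, the lists, the 3 genes most like each member (r of at least 0.15), and the 8 highest ratios per comparison among genes with at least 20 UMIs in, and detected in at least 10% of, the higher group. Some genes that meet these rules are not reported here. Intervals were computed with scipy 1.17.1 under Python 3.11.15, tables with pandas 2.3.3 and numpy 2.4.6, and plots with matplotlib 3.10.9.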

Additional observations from a re-analysis of the deposited data

How the results depend on the processing

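Across 277 alternative values of 33 results, 225 stayed within the counting interval of the reported value (for gene counts, within 1.5 times), 49 moved further, and 3 whose interval had excluded 1 turned in direction. Ratios whose interval included 1 also crossed 1 under some alternatives, such as Th with Ddc at 0.624 in the Dlx group, so their direction is not read. The thinned alternative reads the Stmn2 gate and the Th and Ghrh calls from thinned counts as well. Restricting to the Dlx group, and to neurons outside the Robo3 or Pou4f1 and Gbx2 or Kitl groups, was chosen after seeing the data. The cause of a change was not tested.

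With thinning, 2.78% of neurons had Th, the Th ratio of neurons to other cells was 2.08 (2.16 with at least 3 Stmn2 UMIs), and the Nr4a2 ratio between Th-positive neurons with and without Ghrh was 0 (upper bound 1.86). With at least 2 UMIs required, 1.35% of neurons had Th. Nr4a2 was then at 0.0674 for Th-positive against Th-negative neurons (1 UMI in 30 Th-positive neurons) and at 1.4 for those with against without Ghrh. Observed over expected neurons were 30.3 for Th with Ghrh and 0 for Th with Nr4a2 (upper bound 0.618). In the Dlx group alone, Th-positive against Th-negative neurons had ratios of 1.18 for Slc18a2 and 0 for Nr4a2 (upper bound 7.36), and co-detection with Th was 4.93 times the expected number for Ghrh, 0.516 for Slc18a2 and 0.806 for Nr4a2. With mitochondrial UMIs of at most 5%, Gch1 was at 1.15 in neurons against other cells.

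With Th, 76 genes were higher 2-fold or more and 373 lower. These were 45 higher with thinning, 26 and 234 with at least 2 UMIs, 1187 and 6655 with no filter on low counts, and 9 and 45 at an expected count of at least 20. With Ghrh, 254 were higher and 384 lower, against 111 and 160 with thinning, 190 lower with at least 2 UMIs, 2217 and 3594 with no filter, and 34 and 49 at an expected count of at least 20. No paired analysis was possible because the 4 runs are not told apart in the table, and for the same reason no run could be left out. At a median of 3338 UMIs per cell most positive neurons held 1 UMI of a member, so a cell without a UMI may still hold the RNA.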
